A study of Mus musculus with 4 samples.

Results

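The myogenic transcription factor genes Myod1, Myog, Myf5 and Myf6, the satellite cell gene Pax7, the Mef2 genes Mef2a, Mef2c and Mef2d, and the repressor genes Hdac4 and Dach2 were followed in mouse tibialis anterior, a fast-twitch muscle at the front of the shin. These 10 genes were chosen by name among 32868 gene names, and all 10 were listed above 0 in all 4 libraries. Total RNA came from C57BL/6 mice at postnatal day 21. The Nf1-KO group (2 libraries) carried floxed Nf1 on both alleles and the Het group (2 libraries) carried a floxed and an intact allele, and both groups carried the label Myf5+. Nf1 encodes neurofibromin, which switches off the GTPase Ras, and the comparison asks what its loss in the Myf5 lineage does to muscle after birth. In crosses of this kind Myf5+ stands for a Cre recombinase driven by Myf5, but the labels do not name the allele, and the Het animals are not wild type. Cells outside the Myf5 lineage stay in the whole muscle that was sequenced. The labels do not say whether the libraries came from separate animals, so p-values measure only the spread between these libraries.

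Myogenic regulatory factors are basic helix-loop-helix proteins that pair with E proteins and bind a short DNA motif called the E-box. Myf5 and Myod1 commit cells to muscle, Myog (myogenin) drives their differentiation, and Myf6 (also called MRF4) is the family member best known for its high level in mature fibres. Pax7 marks satellite cells, the stem cells of muscle. Mef2 proteins are MADS-box factors that act with the myogenic factors on muscle genes, and Hdac4 is a class IIa histone deacetylase that binds Mef2 and represses it. In denervated muscle Hdac4 is known to repress Dach2, and Dach2 is known to repress Myog, a route by which nerve activity reaches the acetylcholine receptor genes.

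Myog and Dach2 were the genes of this group with large changes, so the sequences upstream of their starts are shown first. Promoter windows of 300 bases (250 before and 50 after the start) come from RefSeq for build GRCm38.p6, while the submitters' processing notes name mm9, so these positions are not those of the authors' alignment. Of the 10 genes, 8 had an entry, and Myod1 and Myf6 had none. Capitals mark matches to the E-box (CANNTG), to the MEF3 motif bound by proteins of the sine oculis family (TCAGGTT), and to the 8-base core of the MEF2 motif, each searched on both strands. The Myog window lies at chr1:134289754-134290053 on the plus strand. The Dach2 window is that of the first of 2 listed starts, at chrX:113297260-113297559 on the plus strand.
Myog: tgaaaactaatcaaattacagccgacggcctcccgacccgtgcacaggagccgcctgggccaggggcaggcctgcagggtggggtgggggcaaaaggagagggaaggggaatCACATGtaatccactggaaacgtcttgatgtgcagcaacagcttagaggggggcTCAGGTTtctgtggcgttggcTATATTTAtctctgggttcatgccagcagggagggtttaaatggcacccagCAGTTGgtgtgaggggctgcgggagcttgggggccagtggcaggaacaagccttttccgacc
Dach2: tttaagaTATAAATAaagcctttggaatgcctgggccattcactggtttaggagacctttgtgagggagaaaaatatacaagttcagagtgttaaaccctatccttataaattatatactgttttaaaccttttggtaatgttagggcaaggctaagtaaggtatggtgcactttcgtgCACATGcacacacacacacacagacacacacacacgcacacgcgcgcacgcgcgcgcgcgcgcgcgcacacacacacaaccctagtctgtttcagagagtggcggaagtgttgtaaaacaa

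The Myog window held 2 E-boxes, with first bases at -138 and -12 from the start, 1 MEF3 match at -84 and 1 MEF2 core at -63. No 2 of these matches overlapped. The Dach2 window held 1 E-box at -71, which lies next to a run of CA repeats, and 1 MEF2 core at -243, and the window of its other start held no match to any of the 3 motifs. Among all 32851 promoter windows of this length, 72.3% held an E-box, 4.07% a MEF3 match and 9.32% a MEF2 core, and 0.323% held all 3. The first of the 3 Mef2c windows held all 3 as well. The Mef2a window held 1 MEF2 core, and those of Hdac4, Mef2d, Pax7 and Myf5 held none of the 3. A match describes letters in the window and is not a measured binding site.

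The values are RPKM, read counts divided by gene length and by library size, so levels can be set side by side between genes. They summed to between 532315 and 547144 per library, and the number of reads per library is not given in the files. The tested value was log2(RPKM + 1) after scaling between libraries, fitted with limma, and the Benjamini-Hochberg adjustment ran over all 10690 genes that reached 0.5 RPKM in 2 or more libraries. A gene is called higher or lower at an adjusted p under 0.05. The added 1 RPKM shrinks the log2 fold changes of genes near or below 1 RPKM, so their sizes are understated beside those of abundant genes. Fibre genes fixed as markers were abundant in every library: Acta1, Ckm, Tnnt3, Tnni2, Myh4 and Des together held, as deposited, 49540 and 49740 RPKM in Het and 40760 and 40510 RPKM in Nf1-KO. All but Des were lower in Nf1-KO, and Des was higher. Myh4, the fast myosin of type IIb fibres, had a log2 fold change of -1.08 and Acta1, skeletal actin, one of -0.45. Nf1, the targeted gene, was 1.09 and 1.01 RPKM in Het and 0.89 and 0.85 RPKM in Nf1-KO. Both Nf1-KO libraries lay below both Het libraries, with a log2 fold change of -0.18 (SE 0.0573, limma adjusted p 0.0408). The value depends on the added constant, with -0.33 (limma adjusted p 0.0454) at a pseudocount of 0.1, and the authors' deposited table gave -0.38 (adjusted p 0.00258). The call was lost without any 1 of the 4 libraries, where the log2 fold change lay between -0.21 and -0.15 and the adjusted p between 0.0616 and 0.176.

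Of the 10 genes, 9 could be tested and Myf5 fell under the filter on low values. Myog and Dach2 were higher in Nf1-KO and Myf6 and Mef2a were lower, while Myod1, Pax7, Mef2c, Mef2d and Hdac4 were not called. These 4 calls are 44.4% of the 9 tested genes, and 50.3% of all tested genes were called. By direction, 24.9% of all tested genes were higher and 25.4% lower. The median absolute log2 fold change was 0.13 over the 9 genes and 0.16 over all tested genes, so neither the number of calls nor the typical size sets the group apart. The sizes within the group were uneven: only 0.711% of tested genes had a larger absolute log2 fold change than Myog, 2.02% than Dach2 and 29.1% than Myf6. For each of the other 6 tested genes, over 50% of tested genes had a larger one.

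**Figure D1:**
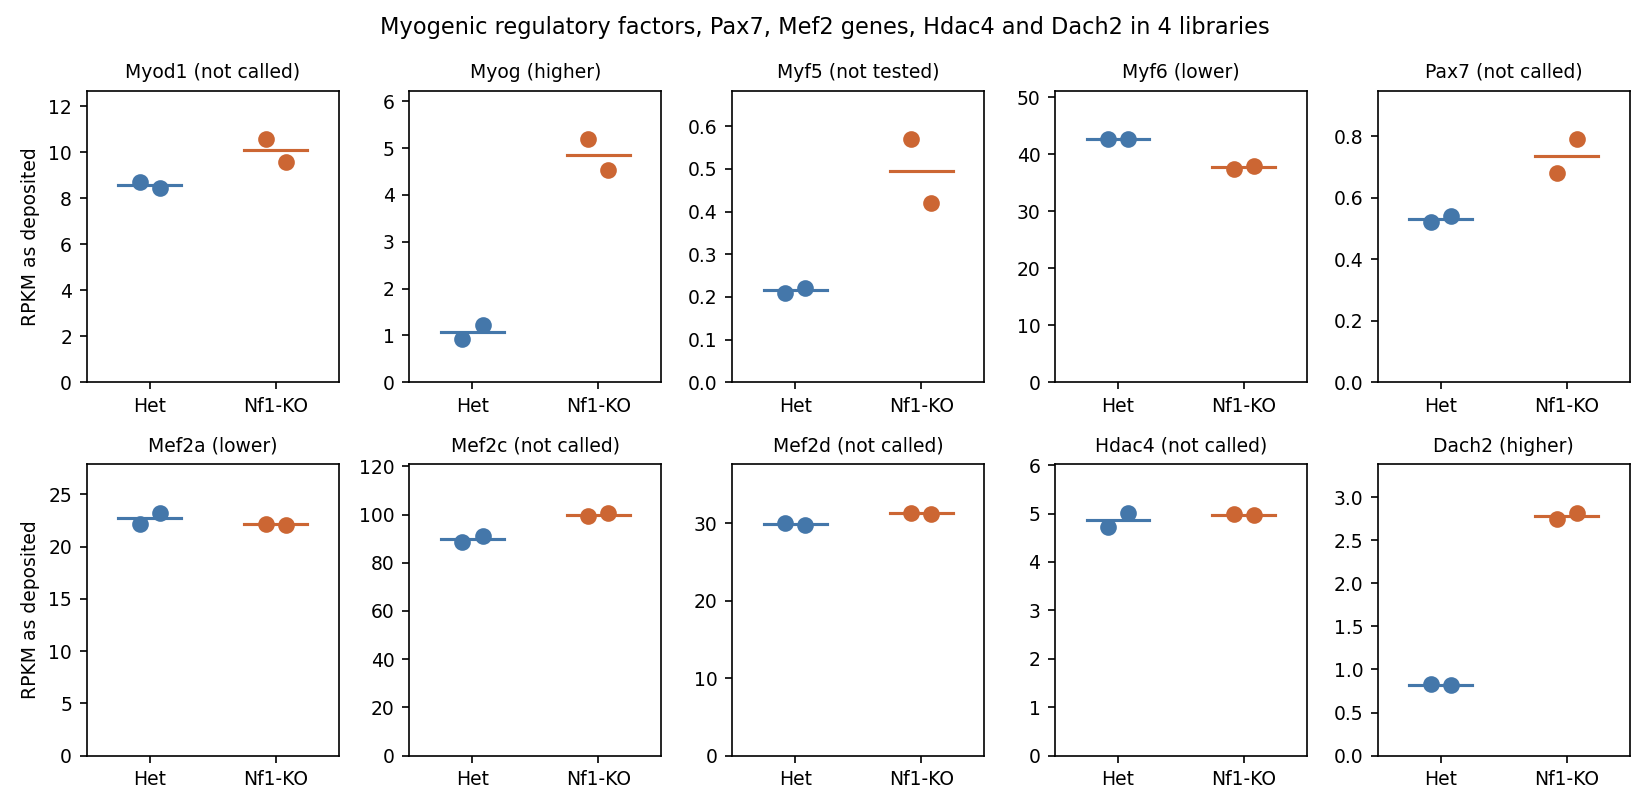
RPKM as deposited (vertical axis, from 0, with its own scale in each panel) of the 10 genes in the 2 Het (blue) and 2 Nf1-KO (orange) libraries; points are libraries and lines are group means. The Nf1-KO points of Myog (4.53 and 5.19) and Dach2 (2.75 and 2.82) lie far above the Het points, while those of Mef2a and Hdac4 lie within or beside the Het range.

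The order of the levels was the same in both groups. From highest to lowest mean over the 4 libraries it ran Mef2c (94.9 RPKM), Myf6 (40.2), Mef2d (30.6), Mef2a (22.4), Myod1 (9.33), Hdac4 (4.93), Myog (2.97), Dach2 (1.80), Pax7 (0.632) and Myf5 (0.355). Neighbours in this order were separated in both groups, with 1 exception. In Nf1-KO, Hdac4 (4.99 and 4.97 RPKM) and Myog (5.19 and 4.53 RPKM) overlapped, whereas in Het Hdac4 was 4.72 and 5.02 RPKM and Myog 0.92 and 1.23 RPKM.

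Among the commitment factors, Myod1 was 8.7 and 8.44 RPKM in Het and 10.58 and 9.59 RPKM in Nf1-KO. Both Nf1-KO libraries were the higher ones, yet the log2 fold change of 0.13 (SE 0.0525) had a limma adjusted p of 0.0922 and was not called. Its 95% interval ran from -0.0020 to 0.25. Without Nf1-KO replicate 2 it was called (0.20, limma adjusted p 0.0243), and so it was with values as deposited and not scaled (0.21, limma adjusted p 0.0169).

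Myf5, the other commitment factor and the gene whose lineage carries the deletion, was the lowest of the 10. It was listed at 0.21 and 0.22 RPKM in Het and at 0.57 and 0.42 RPKM in Nf1-KO, so the groups did not overlap. Only 1 library reached 0.5 RPKM, and no test was made in the fit with the filter. The mean normalized count of Myf5 in the authors' deposited table was 34.8, the lowest of the 10 genes. That table gave a log2 fold change of 1.09 (SE 0.496) and an adjusted p of 0.0814, over the threshold. With no filter, limma on log2(RPKM + 1) gave 0.27 and an adjusted p of 0.05, which lies just under it before rounding. Whether the driver allele, which both groups carry, adds reads to Myf5 or removes them was not tested.

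Myog showed the largest change of the group. It was 0.92 and 1.23 RPKM in Het and 5.19 and 4.53 RPKM in Nf1-KO. The lowest Nf1-KO library was well above the highest Het library. The means were 1.075 ± 0.219 and 4.86 ± 0.467 RPKM (SD, n = 2), a ratio of 4.52 as deposited and 4.23 after scaling. The log2 fold change was 1.44 with an SE of 0.0924 and a limma adjusted p of 5.49e-05. The added 1 RPKM understates the change of a gene this low: the log2 fold change was 2.04 (SE 0.225, adjusted p 1.71e-18) in the authors' deposited table, from a mean normalized count of 203.6. Myog lies on chromosome 1 from 134289989 to 134292548 (GRCm38, GENCODE M21), and no exon of another annotated gene overlaps its exons.

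Myf6, the most abundant of the 4 myogenic factors, moved the other way. It was 42.6 and 42.66 RPKM in Het and 37.39 and 38 RPKM in Nf1-KO, and the groups were well separated for so small a difference because the replicates lay close together. The log2 fold change was -0.27 (SE 0.0245, limma adjusted p 0.000254), and it was -0.28 in the authors' deposited table (adjusted p 1.18e-05). Myf6 lies on chromosome 10 from 107492853 to 107494737 (GRCm38), 6718 bases from Myf5, and its direction thus differed from that of its neighbour's listed values.

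Set against each other, the 4 factors shifted in make-up. Their sum as deposited was 52.4 and 52.6 RPKM in Het and 53.7 and 52.5 RPKM in Nf1-KO, and the groups overlapped. After scaling it was 54.2 and 54.3 against 52.1 and 50.8, so both Nf1-KO sums were the lower ones. Myf6 made up 81.3% and 81.2% of that sum in Het and 69.6% and 72.3% in Nf1-KO. The share of Myog was 1.75% and 2.34% in Het and 9.66% and 8.62% in Nf1-KO, and that of Myod1 16.6% and 16.1% against 19.7% and 18.3%. The ratio of Myog to Myod1 was 0.106 and 0.146 in Het and 0.490 and 0.472 in Nf1-KO. Scaling between libraries cancels in such shares and ratios, but not in the sums. For any single value, 2 libraries against 2 allow no exact permutation p (two-sided) below 0.333, so these shares are given without a test.

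**Figure D2:**
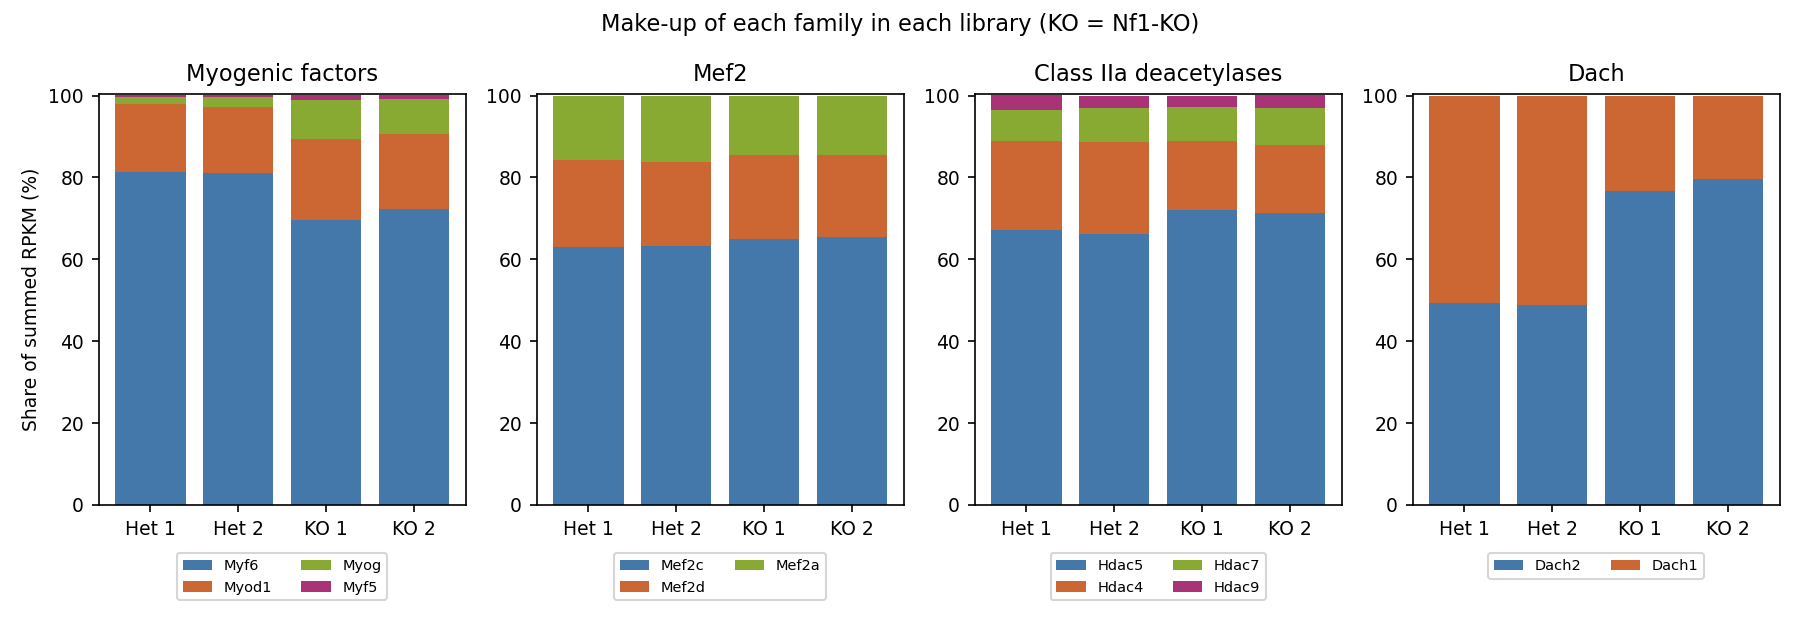
Share of the summed RPKM (vertical axis, percent) that each gene holds within 4 families, in each of the 4 libraries. Myf6 holds 81.2% or more of the myogenic factors in Het and 72.3% or less in Nf1-KO, and Dach2 holds 49.4% or less of the Dach pair in Het and 76.8% or more in Nf1-KO.

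Pax7, the satellite cell factor, was 0.52 and 0.54 RPKM in Het and 0.68 and 0.79 RPKM in Nf1-KO. The groups did not overlap, but the log2 fold change of 0.14 (SE 0.0607) had a limma adjusted p of 0.0934 and was not called. Its 95% interval ran from -0.0030 to 0.29. With values as deposited it was called (0.18, limma adjusted p 0.0466), and in the authors' deposited table its adjusted p was 0.314.

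Other satellite cell genes, from a list of 20 markers and receptors, did not give a single picture. Of the 17 tested, 9 were higher and 2 lower, and their median log2 fold change was 0.17, beside 0.00041 over all tested genes. Barx2, a homeobox factor of muscle progenitors, was 1.88 and 1.96 RPKM in Het and 8.82 and 9.29 RPKM in Nf1-KO (log2 fold change 1.71, limma adjusted p 2.18e-06). The integrin gene Itga7 and the Notch target Hey1 rose by 0.52 and 0.35, the Ras feedback gene Spry1 by 0.20 and desmin (Des) by 0.17 on the log2 scale; the call of Hey1 was lost without Het replicate 2 (0.30, limma adjusted p 0.0583) and with no filter (0.33, limma adjusted p 0.0561). Cd34 was lower, with a log2 fold change of -0.62. Several of these genes are also expressed outside satellite cells, Itga7 and Des in fibres and Cd34 in vessels.

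Cdh15, the M-cadherin of satellite cells, chosen after its values were seen, was 6.43 and 6.16 RPKM in Het and 6.66 and 6.55 RPKM in Nf1-KO. Its log2 fold change was -0.022 (limma adjusted p 0.699), and 0.060 with values as deposited. Chrdl2 and Vcam1, also chosen after their values were seen, were higher by 0.27 (limma adjusted p 0.0301) and 0.18 (0.0363), and the call of Chrdl2 was lost without Het replicate 1 and that of Vcam1 without any 1 library. Both were also lost with no filter (limma adjusted p 0.102 and 0.087), and the authors' deposited table called neither (adjusted p 0.206 and 0.217). The 6 defining satellite cell markers (Pax7, Cdh15, Chrdl2, Calcr, Itga7 and Vcam1) summed, as deposited, to 22.7 and 22.9 RPKM in Het and to 32.4 and 31.8 RPKM in Nf1-KO, most of it Itga7. In whole muscle, more cells of a type and more RNA per cell cannot be told apart.

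Among the Mef2 genes, Mef2c was 88.4 and 91.23 RPKM in Het and 99.24 and 100.79 RPKM in Nf1-KO. Its log2 fold change was 0.060 (SE 0.0245, 95% interval 0.00065 to 0.12, limma adjusted p 0.0854), and it was not called. It was called with values as deposited (0.15, limma adjusted p 0.00294) and where only genes of 1 RPKM or more in every library were tested (0.071, limma adjusted p 0.0408).

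Mef2a was 22.18 and 23.26 RPKM in Het and 22.21 and 22.1 RPKM in Nf1-KO, and these deposited values overlapped. After scaling, both Nf1-KO libraries lay below both Het libraries, and the log2 fold change of -0.12 (SE 0.0336) was called (limma adjusted p 0.0221). The call rests on the scaling: with values as deposited the log2 fold change was -0.034 (limma adjusted p 0.416). It was also lost without Het replicate 2 (-0.094, 0.0952), without Nf1-KO replicate 1 (-0.12, 0.0729) and without Nf1-KO replicate 2 (-0.11, 0.0989), by limma adjusted p. The authors' deposited table gave -0.14 with an adjusted p of 0.00126. Exons of Mef2a overlap those of Lysmd4.

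Mef2d was 30 and 29.76 RPKM in Het and 31.35 and 31.16 RPKM in Nf1-KO. The direction depended on the scaling, with a log2 fold change of -0.029 (95% interval -0.091 to 0.034, limma adjusted p 0.392) after scaling and 0.063 with values as deposited, and neither was called. Exons of Mef2d overlap those of 1700113A16Rik. The fourth relative, Mef2b, was listed at 0 in all 4 libraries. Of the summed RPKM of the 3 detected Mef2 genes, Mef2c held 62.9% and 63.2% in Het and 64.9% and 65.4% in Nf1-KO.

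By scaled values all 10 genes had groups that did not overlap, beside 76.3% of tested genes, and by values as deposited 8 of 10 did not, beside 77.3%. The 2 that overlapped as deposited were Mef2a and Hdac4. The authors' deposited table, which rests on the same 4 libraries, called 4 of the 10 genes (Myog, Dach2, Myf6 and Mef2a), beside 31.6% of its 13985 genes.

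**Figure D3:**
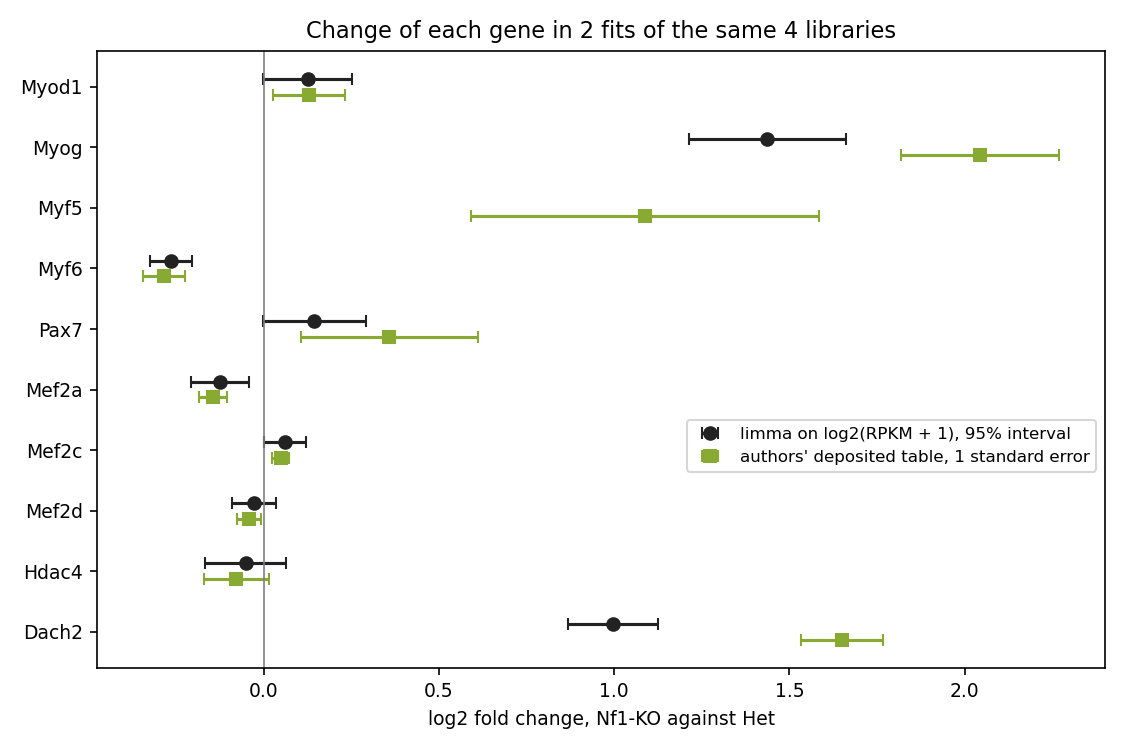
Log2 fold change of Nf1-KO against Het (horizontal axis) for each gene, from limma on log2(RPKM + 1) with its 95% interval (black) and from the authors' deposited table with 1 standard error (green). Myog (1.44 and 2.04) and Dach2 (1.00 and 1.65) lie apart from the other genes, and Myf5 has a value in the authors' deposited table only because it was not tested here.

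Hdac4, the deacetylase that gives activity signals access to Mef2 targets, was 4.72 and 5.02 RPKM in Het and 4.99 and 4.97 RPKM in Nf1-KO. The Nf1-KO values lay within the Het range as deposited. The log2 fold change was -0.051 (SE 0.0475, limma adjusted p 0.405) after scaling and 0.027 with values as deposited. Its 95% interval, -0.17 to 0.064, leaves room for a fall or a rise of that size. Exons of Hdac4 overlap those of the annotated gene Gm26720.

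Of the other class IIa deacetylases, 2 were called higher and 1 was not called. Hdac5 was 14.54 and 14.73 RPKM in Het and 21.58 and 21.62 RPKM in Nf1-KO, a log2 fold change of 0.44 (SE 0.0297, limma adjusted p 6.56e-05). Hdac7 was 1.65 and 1.87 against 2.54 and 2.79 RPKM, a log2 fold change of 0.34 (limma adjusted p 0.00599). Hdac9 was 0.76 and 0.66 against 0.80 and 0.92 RPKM and was not called (0.080, limma adjusted p 0.347). The summed level of the 4 class IIa genes as deposited was 21.7 and 22.3 RPKM in Het and 29.9 and 30.3 RPKM in Nf1-KO. Hdac4 held 21.8% and 22.5% of it in Het and 16.7% and 16.4% in Nf1-KO. The ratio of Hdac5 to Hdac4, in which scaling cancels, was 3.08 and 2.93 in Het and 4.33 and 4.35 in Nf1-KO. The difference between their fold changes was not tested in the fit.

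Dach2, a corepressor of the Dachshund family, was 0.83 and 0.82 RPKM in Het and 2.75 and 2.82 RPKM in Nf1-KO. The replicates of each group lay close together and far from the other group. The means were 0.825 ± 0.0071 and 2.785 ± 0.0495 RPKM (SD, n = 2), a ratio of 3.38 as deposited and 3.16 after scaling. The log2 fold change was 1.00 with an SE of 0.0528 and a limma adjusted p of 2.44e-05, and it was 1.65 (SE 0.117, adjusted p 3.57e-43) in the authors' deposited table.

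Dach2 lies on chromosome X from 113297510 to 113836386 (GRCm38), and no exon of another annotated gene overlaps its exons. The 318 tested genes of chromosome X had a median log2 fold change of 0.048, beside 8.94e-05 for the 9660 autosomal ones. Its relative Dach1, named after its values were seen, was 0.85 and 0.86 RPKM in Het and 0.83 and 0.72 RPKM in Nf1-KO and was not called (log2 fold change -0.11, limma adjusted p 0.189). The 2 genes thus stood at nearly equal levels in Het, with a ratio of Dach2 to Dach1 of 0.977 and 0.954, and at a ratio of 3.31 and 3.92 in Nf1-KO.

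The regulators around Hdac4 and Mef2 were read from a list of 27 genes. Of the 25 tested, 5 were higher and 9 lower, and the median log2 fold change was -0.11; with values as deposited, 8 were higher and 7 lower. Camk2a, a subunit of the calcium-activated kinase CaMKII that drives class IIa deacetylases out of the nucleus, was 66.92 and 66.82 RPKM in Het and 32.43 and 32.05 RPKM in Nf1-KO. Its log2 fold change was -1.12 (SE 0.0238, limma adjusted p 7.33e-07). Of the other CaMKII subunit genes, Camk2g fell by 0.48 on the log2 scale. Camk2d and Camk2b were named after their values were seen. Camk2d fell by 0.20 (limma adjusted p 0.0278), a call lost with values as deposited. Camk2b was 23.45 and 24.23 RPKM in Het and 25.38 and 24.48 RPKM in Nf1-KO and was not called (-0.029, limma adjusted p 0.508). Sik1, a kinase that also phosphorylates class IIa deacetylases, was 3.01 and 2.97 RPKM in Het and 11.73 and 12.15 RPKM in Nf1-KO, a log2 fold change of 1.62 (SE 0.0416, limma adjusted p 1.38e-06). The arginine methyltransferase gene Carm1, a coactivator of Mef2, and Mapk14, which encodes the p38 alpha kinase, fell by 0.65 and 0.32. Exons of Hdac5 overlap Mir8101, those of Hdac7 Slc48a1 and those of Carm1 Yipf2, and the sources used here do not give the strand setting of the counting. Further genes named below or above have such overlaps too, and not all are listed. Among them are Mkl1 with Sgsm3, Bhlhe41 with Gm43909, Ache with Gm42456, Itga7 with Mettl7b, Cd34 with Gm16897 and Smarcd3 with Chpf2.

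Partners and inhibitors of the myogenic factors were read from a list of 17 genes. Of the 13 tested, 5 were higher and 3 lower, and the median log2 fold change was -0.0035, which turned to 0.073 with values as deposited. The E protein genes, which encode the dimer partners, changed little. Tcf4 was called lower (-0.14, limma adjusted p 0.0212), a call lost with values as deposited and without any 1 library. Tcf12 (-0.075, limma adjusted p 0.231) and Tcf3 (-0.0035, limma adjusted p 0.967) were not called and turned to 0.0015 and 0.073 with values as deposited.

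Id proteins bind E proteins without binding DNA and so hold them away from the myogenic factors. Id1 was 7.67 and 7.58 RPKM in Het and 13.53 and 13.37 RPKM in Nf1-KO, a log2 fold change of 0.66 (SE 0.0349, limma adjusted p 2.44e-05). Id3 was 10.62 and 11.02 against 18.03 and 19.18 RPKM (0.64, limma adjusted p 5.37e-05). Id2 was 0.97 and 0.88 against 1.81 and 1.54 RPKM (0.42, limma adjusted p 0.00332). Id4 was at or below 0.39 RPKM in every library and was not tested. All 3 tested Id genes were thus called higher, with values as deposited as well. In the authors' deposited table Id1 and Id3 were called and Id2 was not (0.75, adjusted p 0.0642).

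Other repressors of this list moved in both directions. Bhlhe41, a basic helix-loop-helix repressor that also belongs to the clock, was 10.84 and 10.81 RPKM in Het and 4.64 and 4.13 RPKM in Nf1-KO, a log2 fold change of -1.22 (limma adjusted p 1.24e-05). The zinc finger repressor Snai2 rose by 0.43 on the log2 scale from 0.30 and 0.39 RPKM, and by 1.03 with a pseudocount of 0.1. Zeb1 fell by 0.29 on the log2 scale.

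Synaptic and denervation-responsive genes were read from a list of 25, and whether Myog acts on them in these muscles was not tested. Of the 22 tested, 12 were higher and 3 lower, and the median log2 fold change was 0.27. These calls are 68.2% of the 22, beside 50.3% of all tested genes. A list of 9 such genes had been described on these libraries earlier, so the direction of those it shares with this list is not independent evidence. Chrna1, the alpha subunit of the acetylcholine receptor and a classical Myog target, was 2.79 and 2.75 RPKM in Het and 8.17 and 8.21 RPKM in Nf1-KO (log2 fold change 1.21, SE 0.0426, limma adjusted p 4.39e-06). Chrnd, the delta subunit, was 0.94 and 0.83 against 1.82 and 1.98 RPKM (0.57, limma adjusted p 0.000532).

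The remaining receptor subunits were not called. Chrnb1, the beta subunit, was 10.52 and 11.27 RPKM in Het and 11.75 and 11.48 RPKM in Nf1-KO, with a log2 fold change of -0.0015 (limma adjusted p 0.981) that turned to 0.085 with values as deposited. Chrne, the adult epsilon subunit, was 4.98 and 4.94 against 5.39 and 5.58 RPKM (0.042, limma adjusted p 0.451). Chrng, the fetal gamma subunit that denervation is known to bring back, stayed at or below 0.10 RPKM in every library and was not tested. Musk, the receptor kinase of the synapse, was named after its values were seen and was 1.98 and 1.92 against 3.77 and 3.81 RPKM (0.63, limma adjusted p 0.000127).

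Among the other genes of the list, sarcolipin (Sln), Ankrd1 and the cell cycle inhibitor gene Cdkn1a rose by 3.20, 0.96 and 0.87 on the log2 scale. Acetylcholinesterase (Ache) was lower, at 10.55 and 10.04 RPKM in Het and 6.43 and 6.01 RPKM in Nf1-KO (-0.73, limma adjusted p 5.89e-05). Perinatal myosin (Myh8) has no settled direction, although it counts among the 3 lower genes. The most abundant of its 3 rows, used by rule, was 86.56 and 93.17 RPKM in Het and 67.76 and 65.99 RPKM in Nf1-KO (-0.51). Its next row was 1.15 and 1.5 against 2.92 and 2.92 RPKM, and the authors' deposited table gave Myh8 a log2 fold change of 1.02 (adjusted p 7.83e-05). The mean normalized count there was 163.5 for Myh8, beside 2384 for Myf6, whose RPKM is below that of the most abundant Myh8 row. The deposited fold change shares the direction of the next row, not that of the row used here. Which row it reflects was not tested.

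Genes of myoblast commitment and fusion were read from a list of 19. Of the 14 tested, 7 were higher and 2 lower, and the median difference was 0.16 on the log2 scale. These calls are 64.3% of the 14, beside 50.3% of all tested genes. Igf2, a growth factor of developing muscle, was 3.62 and 4.18 RPKM in Het and 18.17 and 18.94 RPKM in Nf1-KO (log2 fold change 1.92, limma adjusted p 2.97e-06), and its exons overlap those of Gm49394 and of the antisense gene Igf2os. Cdkn1c, Kirrel and Jam2 rose by 0.23, 0.24 and 0.15. The call of Cdkn1c was lost without Het replicate 1 (0.18, limma adjusted p 0.0542), and Cdkn1c was not called in the authors' deposited table (adjusted p 0.0843). That of Kirrel was lost without Het replicate 1 or either Nf1-KO library, and that of Jam2 without either Het library or Nf1-KO replicate 2. With no filter both Kirrel and Jam2 lost their calls (limma adjusted p 0.0724 and 0.0541). Nestin (Nes) and cyclin D1 (Ccnd1) fell by 0.34 and 0.39 on the log2 scale.

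Factors upstream of the myogenic genes were read from a list of 27. Of the 25 tested, 5 were higher and 9 lower, and the median difference was -0.026 on the log2 scale. These calls are 56% of the 25, beside 50.3% of all tested genes. With values as deposited, 7 were higher and 8 lower, and the median was 0.044. Vgll2, a muscle cofactor of the Tead proteins, was 44.00 and 43.16 RPKM in Het and 69.68 and 70.73 RPKM in Nf1-KO (0.58, limma adjusted p 8.32e-06). Mkl1, which encodes the actin-sensing coactivator of Srf, was 9.71 and 9.73 against 4.10 and 3.64 RPKM (-1.22, limma adjusted p 1.3e-05). Srf itself fell by 0.34, the limb muscle factor gene Lbx1 by 0.60, the chromatin remodeller gene Smarcd3 by 0.44 and Tbx15 by 0.16.

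**Figure D4:**
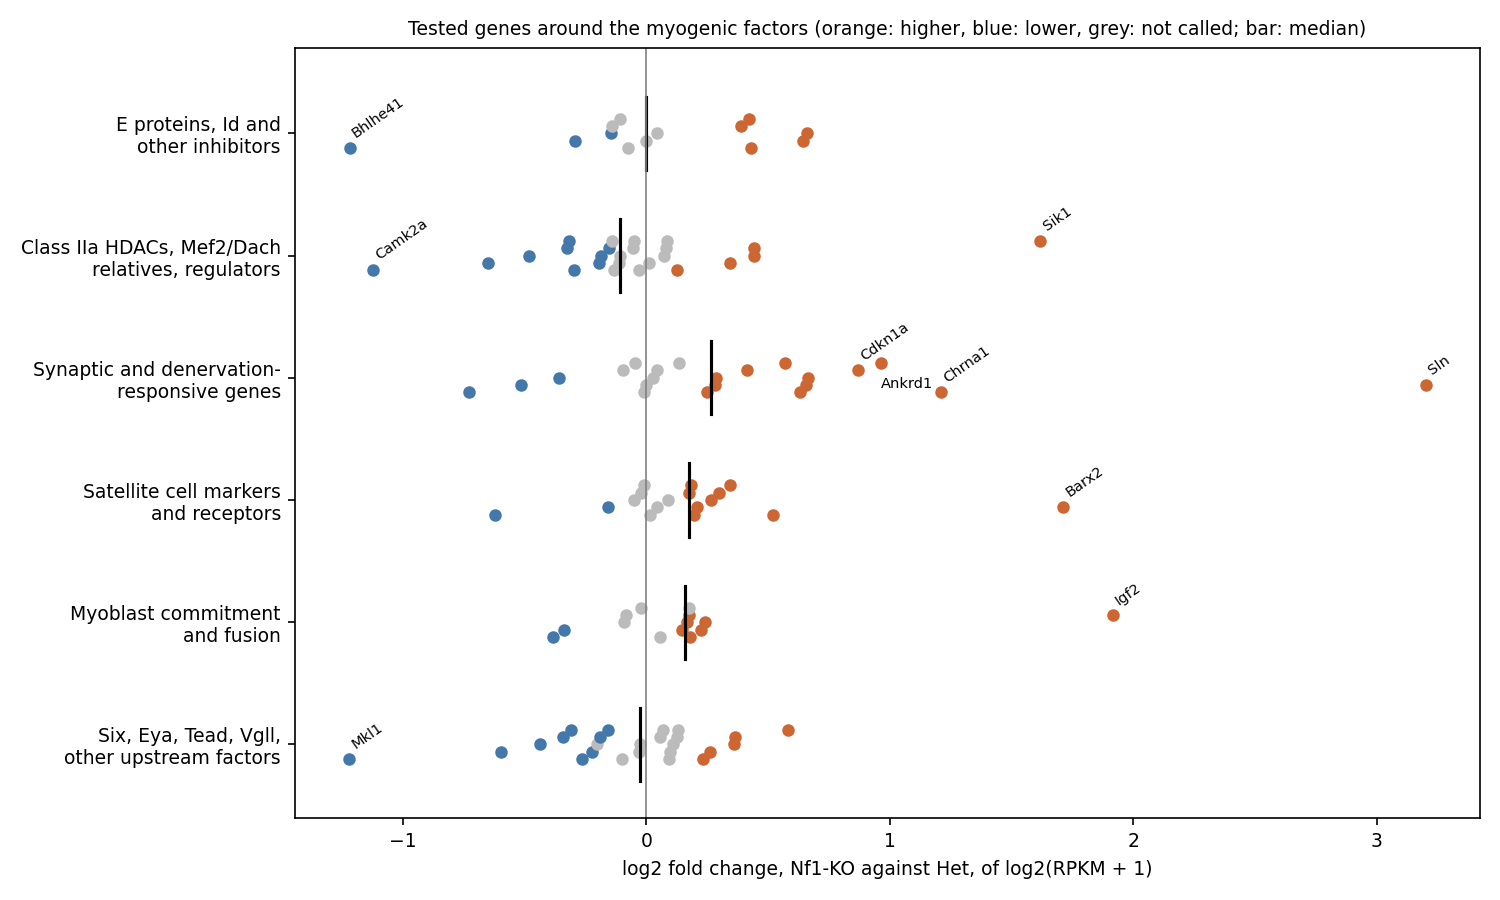
Log2 fold change (horizontal axis) of every tested gene of the 6 lists around the myogenic factors; orange points were called higher, blue lower and grey not called, black bars are list medians, and genes beyond 0.85 are named. The synaptic list has the highest median (0.27), with 12 genes higher and 3 lower, while the list of E proteins and inhibitors is centred near 0. Of all tested genes, 50.3% were called.

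Markers of other cell types moved in the same comparison, beside the lower fibre markers given above. Over all tested genes, 24.9% were called higher and 25.4% lower. The marker sums are of values as deposited, where the median of all tested genes lay at 0.070 on the log2 scale. The calls are from scaled values. Of 8 Schwann cell markers, all 6 tested were higher, with sums of 15.2 and 15.7 RPKM in Het and 35.5 and 33.9 RPKM in Nf1-KO, and Ncmap was listed at 0 in all 4 libraries. Of 8 immune cell markers, all 3 tested were higher, with sums of 9.04 and 9.30 against 28.5 and 28.3 RPKM, most of it Lyz2, and Adgre1 was listed at 0 in all 4 libraries. Of 6 fibro-adipogenic cell markers, 5 were higher, with sums of 93.0 and 89.6 against 136.9 and 139.0 RPKM. Of the 6 endothelial markers, 2 were higher and 1 lower, and their median log2 fold change after scaling was -0.060. Their sums were 71.7 and 72.1 against 77.7 and 76.6 RPKM as deposited. The 3 smooth muscle markers gave 1 higher and 1 lower, with sums of 28.1 and 27.8 against 32.7 and 33.1 RPKM, and of the 5 adipocyte markers 2 were tested and 1 was higher, with sums of 2.42 and 2.67 against 2.68 and 2.89 RPKM. Blood markers summed to at most 1.77 RPKM in any library, with Hbb-b1 and Hbb-bt at 0, and the brown fat gene Ucp1 was at 0. Id genes, Snai2 and Hey1 are also expressed in such cells. The part of these cells in the values of Myog, Dach2 and the listed genes was not tested.

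By pattern over the 4 libraries, the genes most like each called member were those with the smallest root mean square difference in scaled, centred log2(RPKM + 1). For Myog they were 4933415F23Rik, 2310075C17Rik, Zdhhc23, Angptl4 and Col12a1, with differences of 0.0617 to 0.0892. For Dach2 they were Slc27a1, AK139359_gene, Ech1, Tmem47 and Amotl2 (0.00871 to 0.0192). For Myf6 they were Ola1, Hcfc1r1, BC004004, Sos1 and Golgb1 (0.00604 to 0.00796), and for Mef2a Cmtr2, Tceanc2, Stt3a, Tfcp2l1 and Stau1 (0.00501 to 0.00742). With 4 libraries in 2 groups this likeness is mostly that of the fold change.

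**Figure D5:**
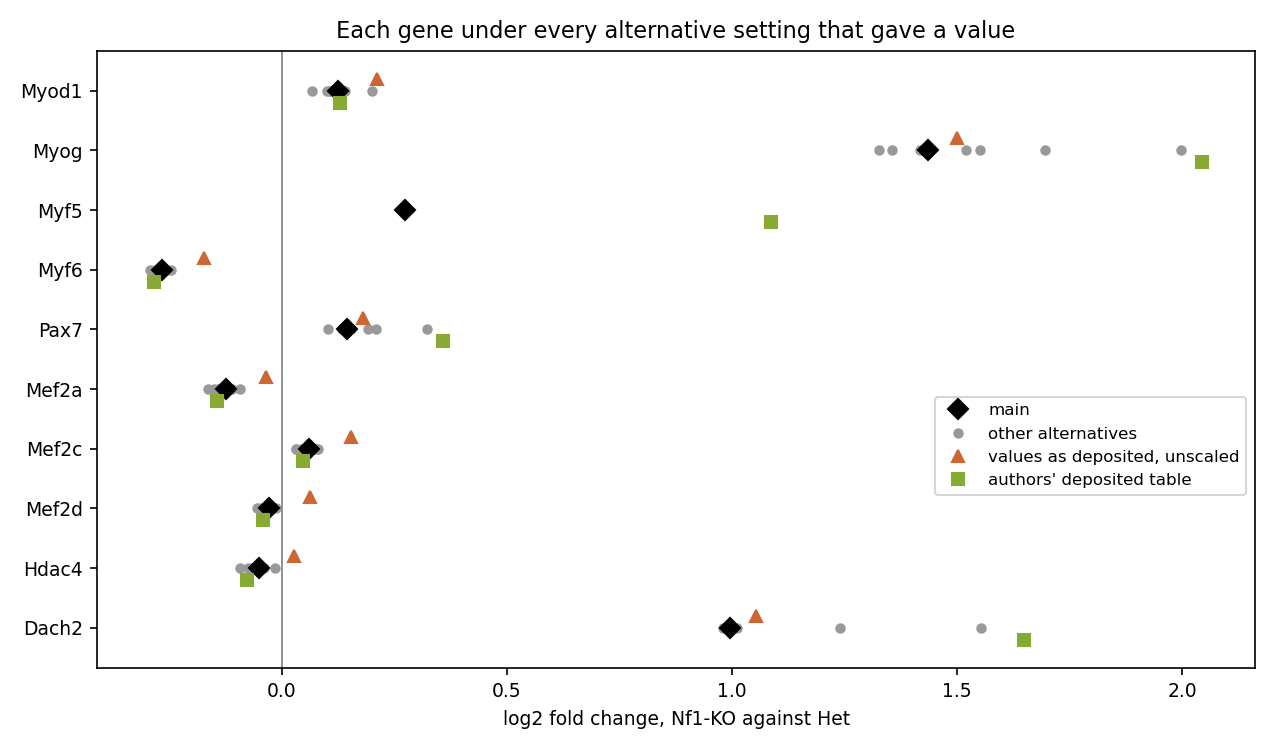
Log2 fold change of each gene (horizontal axis) in the main fit (black; for Myf5 the untested difference of scaled means), with values as deposited and unscaled (orange), in the authors' deposited table (green) and under every other alternative that gave a value (grey). Myog and Dach2 stay above 0.97 throughout, Myf6 stays between -0.29 and -0.17, and Mef2d and Hdac4 cross 0 without scaling.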

How the data were processed

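RNA of 4 muscle libraries was made with a TruSeq RNA version 2 kit, per the labels' protocols. The submitters' processing notes name STAR 2.4.2a, DESeq2 and build mm9, without roles; annotation, counting and strand are not given in the sources used here. The values that the authors deposited per library were read as RPKM from their size, since no header names the unit. The comparison table that the authors deposited holds, per the file headers, the log2 fold change of each gene with its p-value, raw and adjusted, a test score, and a signal value (mean normalized count).

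Of 34682 rows, 33 named by a number were left out, and among 1781 copies of a name only the most abundant row was used. Scaling followed the trimmed-mean method without weights; 30% of the log ratios and 5% of the abundances were cut from either tail. The factors were 0.968, 0.967, 1.03 and 1.03. limma 3.58.1 (R 4.3.3) was fitted to log2(RPKM + 1) with a variance trend and no covariate. The fit was also run on simulated data with a fixed spread, where far fewer genes changed than were called here. That run therefore cannot test the scaling or the rate of false calls in these data. Intervals are limma's 95% intervals. In each list, the 6 genes with the smallest adjusted p were named, with all Id, E protein, class IIa deacetylase and receptor subunit genes. The genes and lists were chosen with earlier results of these data known. Alternatives covered the pseudocount, filter, scaling, variance trend, copies, replicate block and each left-out library. The labels give no batch. Of the list genes under the filter, 1 is not reported here.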

Additional observations from a re-analysis of the deposited data

How the results depend on the processing

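Of 825 fold changes of the named genes under the alternatives (Snai1, Camk2b and Camk2d not among them), 768 kept both direction and call. Myog, Dach2 and Myf6 did so under every alternative that tested them. The number of genes called ran from 3647 (adjusted p under 0.01) to 5643 (unscaled), and of the 10 members 3 to 6 were called. With values as deposited and unscaled, the median of all tested genes moved by 0.070 and the split from 2661 higher and 2720 lower to 3760 and 1883. There Myod1 (0.21), Pax7 (0.18) and Mef2c (0.15) were called, Mef2a (-0.034) and Nf1 (-0.13) lost their calls, and Mef2d (0.063), Hdac4 (0.027), Tcf3 (0.073), Tcf12 (0.0015), Chrnb1 (0.085) and Cdh15 (0.060) turned sign without a call. With no filter, where more genes were tested, Myf5 was called (0.27), while Mef2a (-0.14), Nf1 (-0.19), Hey1, Kirrel, Jam2, Chrdl2 and Vcam1 lost their calls. With 1 RPKM in every library Mef2c was called (0.071), and Tcf3 (0.0055) and Chrnb1 (0.0088) turned sign. Without a variance trend Mef2a was not called (-0.12). The cause of these moves was not tested. Of 42 named list genes called here, with Snai1 and Camk2d left out, the authors' deposited table called 37 in the same direction and Myh8 in the other. It did not call Id2, Vcam1, Chrdl2 and Cdkn1c.

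When each library was left out, log2 fold changes ran from -0.21 to -0.15 for Nf1, from -0.16 to -0.094 for Mef2a and from 0.068 to 0.20 for Myod1, and counts of called genes from 4050 to 4177. The same fits moved Tcf3 from -0.059 to 0.068, Chrnb1 from -0.052 to 0.043 and Cdh15 from -0.050 to 0.00022. A group left with 1 library is assumed to vary like the other.

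Same-numbered libraries shared no deviation over genes (correlation -0.0179 over 10690 genes, 2 pairs). With 2 libraries per group this cannot exclude a pairing. With the replicate block, 5343 genes and 4 members were called, and Nf1 (-0.18, limma adjusted p 0.0537) was not. No count test was run on RPKM. Depth is known only through the mean normalized counts of the authors' deposited table, which limits Myf5 (34.8), Pax7 (127.6) and Myog (203.6) most.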

Other observations

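Of the 19 genes of the 6 lists that fell under the filter on low values, 5 were higher in both Nf1-KO libraries than in both Het libraries, 4 were lower in both, and 10 overlapped. Among genes that passed the filter, 77.3% had groups that did not overlap as deposited, so such a separation is common. That share was not computed for genes under the filter. The genes named here were picked after their values were seen.

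Among the higher ones were Tmem8c, Runx1, Megf10 and Eya2. Tmem8c, the older name of the gene for the fusion protein myomaker, was listed at 0 and 0.01 RPKM in Het and at 0.21 and 0.43 RPKM in Nf1-KO. With no filter limma did not call Tmem8c (adjusted p 0.0607), while the authors' deposited table did (adjusted p 0.003). Runx1, a factor that denervation is known to raise, was 0.16 and 0.14 RPKM in Het and 0.36 and 0.38 RPKM in Nf1-KO. Megf10, a receptor of satellite cells, was 0.12 in both Het libraries and 0.34 and 0.32 RPKM in Nf1-KO. Both Runx1 and Megf10 were called with no filter (limma adjusted p 0.00987 and 0.00738) and in the authors' deposited table (adjusted p 6.06e-05 and 0.000358). Eya2 was 0.26 and 0.22 against 0.6 and 0.48 RPKM and was called in the authors' deposited table (adjusted p 0.032).

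The lower ones were Pax3, Calcr, Id4 and Mdfi. Pax3, a relative of Pax7 that marks embryonic muscle progenitors, was 0.08 and 0.11 RPKM in Het and 0.01 RPKM in both Nf1-KO libraries, and the authors' deposited table called it lower (log2 fold change -3.89, adjusted p 0.00046). Calcr, the calcitonin receptor of quiescent satellite cells, was 0.06 and 0.15 against 0.04 and 0.05 RPKM. Id4 was 0.25 and 0.39 against 0.2 and 0.15 RPKM, and Mdfi, which encodes an inhibitor of myogenic factors, was 0.1 and 0.11 against 0.06 and 0.07 RPKM. In the authors' deposited table none of Calcr, Id4 and Mdfi was called (adjusted p 0.236, 0.288 and 0.486).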
